A study of Mus musculus with 8 samples.

Results

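GABA-A receptor subunits are the proteins that assemble into the chloride channels through which GABA inhibits neurons. The genes described here are the 7 members Gabra2, Gabra3, Gabra4, Gabra5, Gabrb1, Gabrb2 and Gabrd, and each was read at every probe that the platform annotation names with its symbol, whatever its values. That rule gave 11 of the 45281 probes, standing for 6 of the 7 genes, since no probe is named Gabra2 here. Of these 11 probes, 7 (Gabra3, Gabrb1, Gabrb2 and Gabrd) were detected on all 8 arrays and tested, among 20531 probes tested in all. The other 4 probes, which include the only ones for Gabra4 and Gabra5, were detected on 0 arrays.

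The samples are bilateral 1 mm punches of medial prefrontal cortex from 10-week-old male mice, with RNA hybridised to 8 Illumina bead arrays. IMO mice (4 arrays, replicates 1 to 4) underwent a single 2 h immobilization and were studied at rest after 6 days. The No stress group (4 arrays, replicates 5 to 8) had no immobilization. The labels give no strain, and do not say that each array holds 1 animal or that animals were pooled, so p-values measure only the spread between these samples.

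A GABA-A receptor is a ring of subunits, most often alpha and beta subunits joined by a gamma or a delta subunit. GABA binds where a beta and an alpha subunit meet, and the alpha subunit decides much of the response to benzodiazepines. Receptors with a gamma subunit cluster at synapses and carry fast phasic inhibition, whereas those with the delta subunit lie outside synapses, carry tonic inhibition and are sensitive to neurosteroids, steroids whose levels move with stress. Stress is known to alter GABA signalling in the prefrontal cortex, and the comparison asks whether subunit transcripts differed 6 days after a single immobilization.

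The promoter windows of 3 genes are shown for the subunits that the values below turn on: Gabrb1 and Gabra4, neighbours on opposite strands of chromosome 5 of which one gave probes well above background and the other none, and Gabrb2, whose probe had the widest difference among those tested. Each runs from 250 bases before to 50 bases after an annotated transcript start in RefSeq (GRCm38.p6). Gabrb1 and Gabrb2 have further annotated starts, whose windows are not shown. The Gabrb1 start shown and that of Gabra4 lie 387 bases apart. RefSeq windows were found for 6 of the 7 genes (10 windows). Capitals mark matches on either strand to GCGNGGGCG (an EGR site), TGACG (a cyclic AMP response half-site), AGAACA (glucocorticoid receptor half-site) or TATAAA (core promoter box), none of which overlap here.
Gabrb1, GRCm38.p6 chr5:71657671-71657970, plus strand: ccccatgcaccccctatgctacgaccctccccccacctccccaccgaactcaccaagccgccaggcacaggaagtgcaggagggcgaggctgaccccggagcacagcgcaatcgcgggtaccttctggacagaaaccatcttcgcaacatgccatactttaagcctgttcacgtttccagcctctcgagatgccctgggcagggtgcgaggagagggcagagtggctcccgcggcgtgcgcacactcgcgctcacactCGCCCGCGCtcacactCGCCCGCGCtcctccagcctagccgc
Gabra4, GRCm38.p6 chr5:71658259-71658558, minus strand: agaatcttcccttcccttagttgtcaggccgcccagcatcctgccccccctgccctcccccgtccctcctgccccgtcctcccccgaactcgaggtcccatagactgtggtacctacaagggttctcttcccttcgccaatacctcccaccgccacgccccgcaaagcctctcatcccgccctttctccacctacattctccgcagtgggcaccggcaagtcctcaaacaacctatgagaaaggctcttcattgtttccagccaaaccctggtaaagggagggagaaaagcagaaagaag
Gabrb2, GRCm38.p6 chr11:42420190-42420489, plus strand: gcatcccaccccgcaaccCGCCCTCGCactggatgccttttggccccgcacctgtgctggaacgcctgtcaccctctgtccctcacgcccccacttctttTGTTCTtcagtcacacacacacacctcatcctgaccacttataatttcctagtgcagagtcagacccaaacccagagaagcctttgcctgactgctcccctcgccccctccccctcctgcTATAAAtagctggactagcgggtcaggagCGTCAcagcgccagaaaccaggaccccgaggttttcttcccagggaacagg
The Gabrb1 window shown holds 2 EGR matches, beginning 9 and 25 bases into the transcript from that start. The Gabra4 window holds no match to any of the 4 motifs, and the Gabrb2 window shown holds 1 match to each. Of all 32851 promoter windows 5.55% hold the EGR letters, 20.8% the cyclic AMP letters, 19.0% the glucocorticoid letters and 13.6% the core promoter letters. Of the 10 subunit windows these counts were 2, 1, 2 and 3. The 2 Gabra3 windows overlap and hold the same core promoter match, which is counted for each window. These matches describe letters only.

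Markers of cortical excitatory neurons were detected, not all of them strongly, and 2 arrays stood apart. Slc17a7, the vesicular glutamate transporter of cortical excitatory neurons, was detected on all 8 arrays (log2 signal 12.28 to 13.07). Of the same list Neurod2 read 10.32 to 10.83, Emx1 lay near the detection level (6.40 to 6.73) and Neurod6 was detected on 6 arrays. The cortical layer markers Calb1 and Foxp2 were detected on 0 and 1 arrays. Prkcd, abundant in thalamus and other regions beneath the cortex, had log2 signals of 10.10 in IMO replicate 1 and 10.30 in No stress replicate 6, against 7.37 to 7.69 on the other 6 arrays, and Zic1, a septal and thalamic transcription factor, had 11.86 and 11.63 against 8.81 to 9.70. Cux2, an upper-layer cortical transcription factor, went the other way, with 7.85 and 8.04 against 9.15 to 9.80. Over 6 tested upper-layer markers of 7 listed, the centred mean was -0.43 and -0.56 on this pair, against -0.05 to 0.37 elsewhere. Cux1 of that list was split, with 9.03 in IMO replicate 1 and 8.53 in No stress replicate 6, against 8.62 to 8.75. Over 9 tested septal and thalamic markers of 10 listed, the centred mean was 0.83 and 0.81 on this pair and -0.38 to -0.11 elsewhere, and their summed linear signal ran from 2997 to 8275 in the IMO group and from 2982 to 7511 in the No stress group. 1 marker of that list, Lef1, was detected on 0 arrays. The list was mixed: besides Prkcd and Zic1, both arrays lay above the other 6 at Zic2, Zic4 and Trpc4. Tcf7l2, Rora and Calb2 lay above them in IMO replicate 1 only. Ntng1 had 8.62 in IMO replicate 1 and 9.17 in No stress replicate 6, against 9.10 to 9.64. Over 7 tested myelin markers of 8 listed, the pair stood apart as well, with centred means of 1.012 and 1.196 against -0.70 to 0.02 on the other arrays. The 8 tested striatal markers of 10 listed had 0.38 and 0.57 on the pair, against -0.41 to 0.10. This list was split too. Both arrays lay above the other 6 at Ppp1r1b, Penk, Tac1 and, in IMO replicate 1 by little, Drd2. They did not at Rgs9, Gng7 and Pde10a, and Drd1 had 7.97 in IMO replicate 1 and 8.73 in No stress replicate 6, against 8.20 to 9.04. Over 7 tested deep-layer cortical markers of 9 listed, the pair was split, with -0.38 and 0.035 against -0.255 to 0.288. Each group holds 1 array of the pair.

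**Figure D1:**
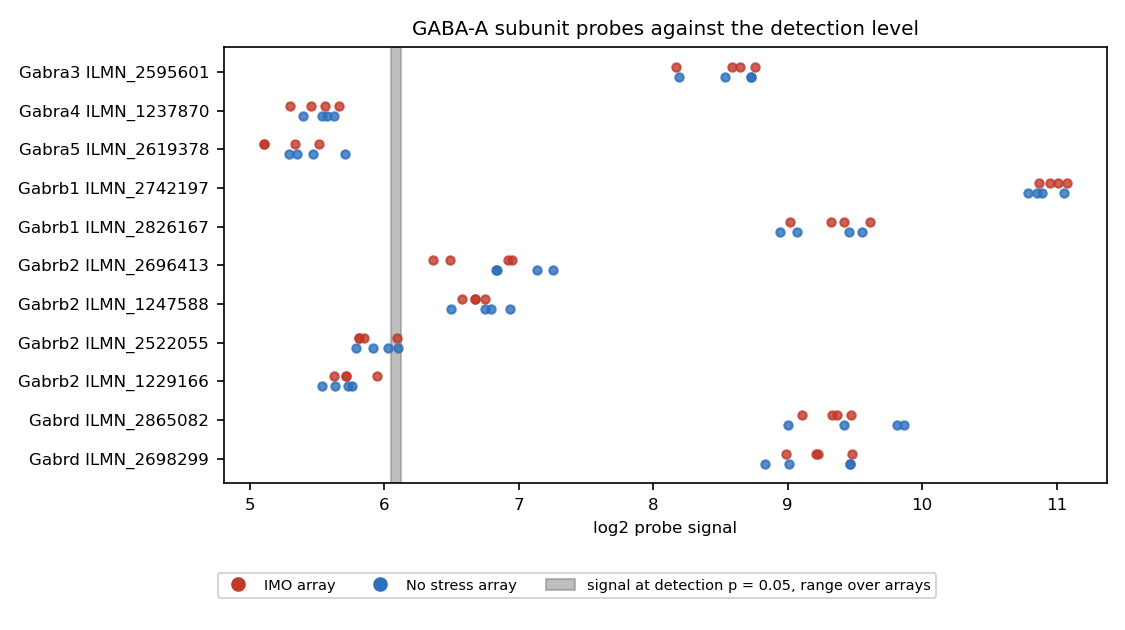
Log2 probe signal (horizontal axis) of all 11 GABA-A subunit probes (rows), with 1 point for each IMO array above and each No stress array below. The grey band is the signal at which the detection p reaches 0.05 (6.05 to 6.13 over arrays): 7 probes lie to its right on every array, while the Gabra4, Gabra5 and 2 of the Gabrb2 probes were detected on 0 arrays. Levels of different probes are not comparable with each other.

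The alpha subunits were represented by 1 informative probe. Gabra3 encodes an alpha subunit of benzodiazepine-sensitive receptors. Its probe ILMN_2595601 had log2 signals of 8.64, 8.59, 8.76 and 8.17 in IMO replicates 1 to 4, against 8.19, 8.73, 8.73 and 8.54 in No stress replicates 5 to 8. Each group held 1 array near 8.2 and 3 between 8.5 and 8.8, so the groups overlapped almost wholly. The log2 means were 8.54 ± 0.26 in IMO and 8.55 ± 0.25 in No stress arrays (SD, n = 4 each), a log2 difference of -0.01 with a 95% interval from -0.34 to 0.33 (limma adjusted p 0.994, two-sided exact permutation p 0.971). On the linear scale that interval runs from 0.788-fold to 1.26-fold, so a change within it was not detectable with these arrays.

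Gabra4 encodes an alpha subunit that partners the delta subunit outside synapses and lacks the classical benzodiazepine response. Its single probe ILMN_1237870 gave 5.56, 5.46, 5.66 and 5.30 in IMO and 5.40, 5.57, 5.54 and 5.63 in No stress arrays, all below the detection level. Gabra5 encodes an alpha subunit of tonic, mostly extrasynaptic receptors. Its single probe ILMN_2619378 gave 5.51, 5.34, 5.11 and 5.11 in IMO and 5.29, 5.36, 5.47 and 5.71 in No stress arrays, again below detection. The detection p lay between 0.26 and 0.796 for Gabra4 and between 0.238 and 0.972 for Gabra5, so neither probe was tested. A probe not above background carries no information on whether its transcript is made in this tissue.

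Gabrb1, 1 of the beta subunits that form the GABA binding site with an alpha subunit, had small differences at both probes. Its brighter probe ILMN_2742197 read 11.08, 10.95, 10.87 and 11.01 in IMO replicates 1 to 4, against 10.85, 10.89, 11.06 and 10.79 in No stress replicates 5 to 8. All IMO values lay above the 2 lowest No stress values, yet No stress replicate 7 lay above 3 of the 4 IMO arrays. The log2 means were 10.98 ± 0.09 and 10.90 ± 0.11 (SD, n = 4 each, IMO first), a log2 difference of 0.08 with a 95% interval from -0.12 to 0.28 (limma adjusted p 0.805, exact permutation p 0.314). As a fold that interval runs from 0.921 to 1.21, the narrowest among the tested members. The difference was 0.04 without No stress replicate 8 and 0.13 without No stress replicate 7.

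The dimmer Gabrb1 probe, ILMN_2826167, read 9.61, 9.42, 9.02 and 9.32 in IMO arrays, against 8.94, 9.45, 9.55 and 9.07 in No stress arrays. The highest value was in IMO replicate 1 and the lowest in No stress replicate 5, with the groups interleaved between them. On the log2 scale IMO arrays differed from No stress arrays by 0.09 ± 0.16 (standard error, limma adjusted p 0.893, exact permutation p 0.686). Both Gabrb1 probes thus had small differences of the same sign, and they lay on the same side of their own mean on 7 of the 8 arrays. Without No stress replicate 5 the dimmer probe's difference was -0.01.

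Gabrb2, the beta subunit of the most common cortical receptor, had the widest difference among the tested members, at 1 probe. ILMN_2696413 had log2 signals of 6.95, 6.37, 6.92 and 6.49 in IMO replicates 1 to 4, against 6.84, 7.14, 7.26 and 6.83 in No stress replicates 5 to 8. IMO replicates 2 and 4 lay below every No stress array, while IMO replicates 1 and 3 lay between the No stress values, so the groups overlapped. The log2 means were 6.68 ± 0.30 in IMO and 7.02 ± 0.21 in No stress arrays (SD, n = 4 each). IMO arrays thus differed by -0.34 ± 0.15 on the log2 scale (standard error), or 0.792-fold with a 95% interval from 0.625-fold to 1.00-fold. It did not pass (limma unadjusted p 0.0523, adjusted p 0.475, exact permutation p 0.171, where 0.0286 is the smallest that 4 against 4 arrays can give). With single arrays left out the difference ran from -0.43 (without IMO replicate 1) to -0.23 (without IMO replicate 2), always negative. Its unadjusted p was under 0.05 in 4 of these 8 fits, and the smallest adjusted p among them was 0.344.

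The other tested Gabrb2 probe had a smaller difference. ILMN_1247588, annotated to the same transcript, read 6.68, 6.75, 6.58 and 6.68 in IMO arrays, against 6.79, 6.75, 6.94 and 6.49 in No stress arrays. Its IMO values lay close together inside the wider No stress range. The log2 difference was -0.07 with a 95% interval from -0.30 to 0.15 (limma adjusted p 0.855, exact permutation p 0.486). It was -0.0084 without No stress replicate 7 and -0.16 without No stress replicate 8. The pair of Gabrb2 probes lay on the same side of their own mean on 4 of the 8 arrays only and differed by up to 0.52 after centring, in IMO replicate 2. Both lie close to the detection level, where background makes up much of the signal. The remaining probes, ILMN_2522055 (5.79 to 6.10) and ILMN_1229166 (5.54 to 5.94), were detected on 0 arrays and not tested.

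**Figure D2:**
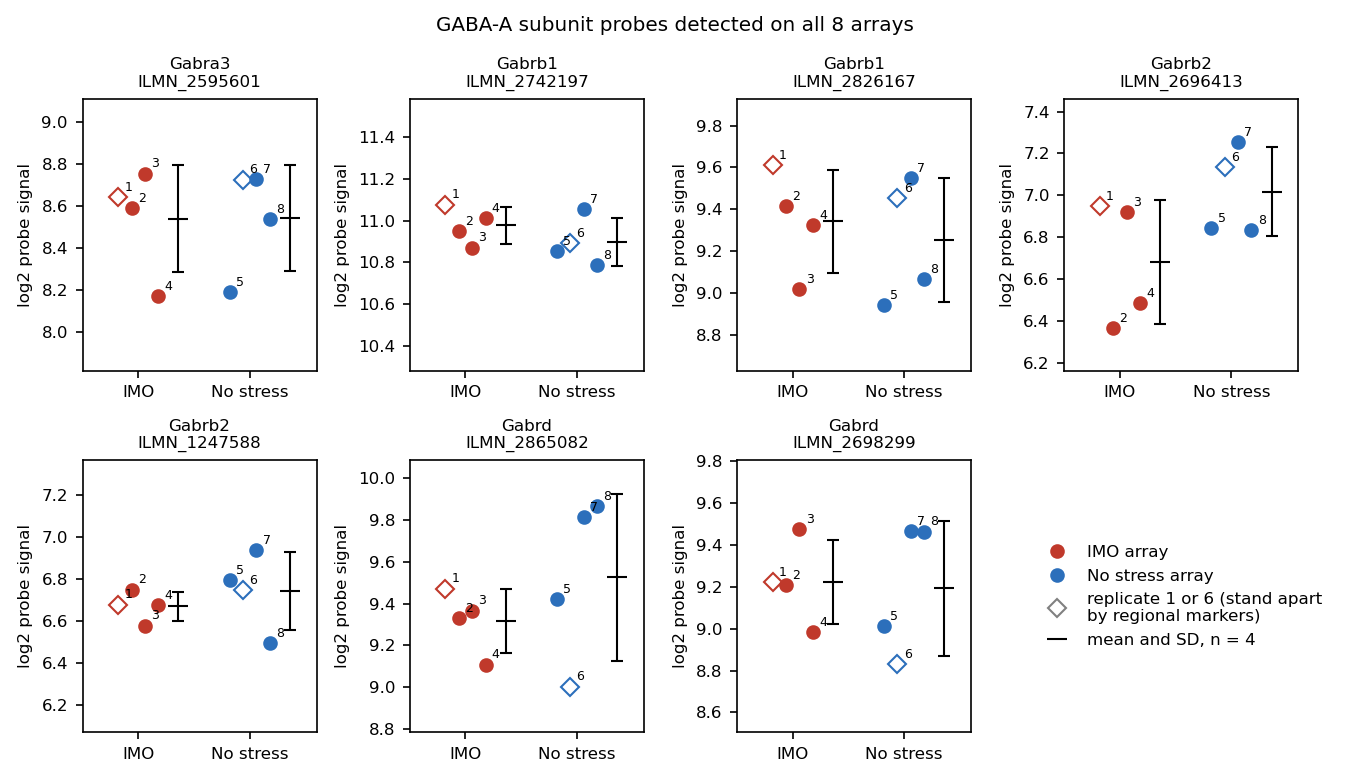
Log2 probe signal (vertical axis, 1.3 units high in each panel) of the 7 tested subunit probes, with IMO arrays in red on the left and No stress arrays in blue on the right. Numbers are replicates, bars give the mean and SD (n = 4), and open diamonds are IMO replicate 1 and No stress replicate 6. The groups overlap in every panel. At Gabrb2 ILMN_2696413 the IMO mean of 6.68 stands below the No stress mean of 7.02, and at both Gabrd probes No stress replicate 6 is the lowest array.

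Gabrd, the delta subunit of extrasynaptic receptors and a main target of neurosteroids, moved most when single arrays were left out. Its brighter probe ILMN_2865082 read 9.47, 9.33, 9.37 and 9.11 in IMO replicates 1 to 4, against 9.42, 9.003, 9.81 and 9.87 in No stress replicates 5 to 8. No stress replicates 7 and 8 were the highest arrays and No stress replicate 6 the lowest, so the No stress values enclosed all IMO values. The log2 means were 9.32 ± 0.15 in IMO and 9.53 ± 0.40 in No stress arrays (SD, n = 4 each), which differ by -0.21 ± 0.18 (standard error, limma adjusted p 0.729, exact permutation p 0.371).

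Gabrd's other probe, ILMN_2698299, read 9.22, 9.21, 9.48 and 8.98 in IMO arrays, against 9.01, 8.83, 9.46 and 9.46 in No stress arrays. Again No stress replicate 6 was lowest, and IMO replicate 3 was highest by a small margin. Its log2 difference was 0.03 with a 95% interval from -0.32 to 0.38 (limma adjusted p 0.969, exact permutation p 0.943), opposite in sign to the first probe. The probes lay on the same side of their own mean on 6 of the 8 arrays and disagreed most in IMO replicate 3, by 0.33 after centring. With single arrays left out the first probe ran from -0.38 (without No stress replicate 6) to -0.09 (without No stress replicate 8) and was also at -0.11 without No stress replicate 7. The other ran from -0.09 (without No stress replicate 6) to 0.12 (without No stress replicate 7).

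In the pair of arrays with high Prkcd and Zic1, the Gabrd differences had the opposite sign to those within the rest, which at 1 probe were near 0. IMO replicate 1 minus No stress replicate 6 gave 0.47 for ILMN_2865082 and 0.39 for ILMN_2698299. Within the other 6 arrays, 3 against 3, the IMO minus No stress difference was -0.43 and -0.09, and for the first of these the limma unadjusted p was 0.0106 and the adjusted p 0.336. For ILMN_2698299 the limma unadjusted p was 0.589 and the adjusted p 0.872. With the pair entered as a block the difference of ILMN_2865082 stayed at -0.21 (adjusted p 0.617). For Gabrb2 ILMN_2696413 the within-pair difference was -0.19 and that within the other 6 arrays -0.39 (unadjusted p 0.0431, adjusted p 0.422). Gabra3 had -0.08 within the pair and 0.02 within the other 6, and both Gabrb1 probes were positive in each (0.18 and 0.16 within the pair, 0.05 and 0.07 within the other 6). The part of the regional and myelin markers in these values was not tested.

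**Figure D3:**
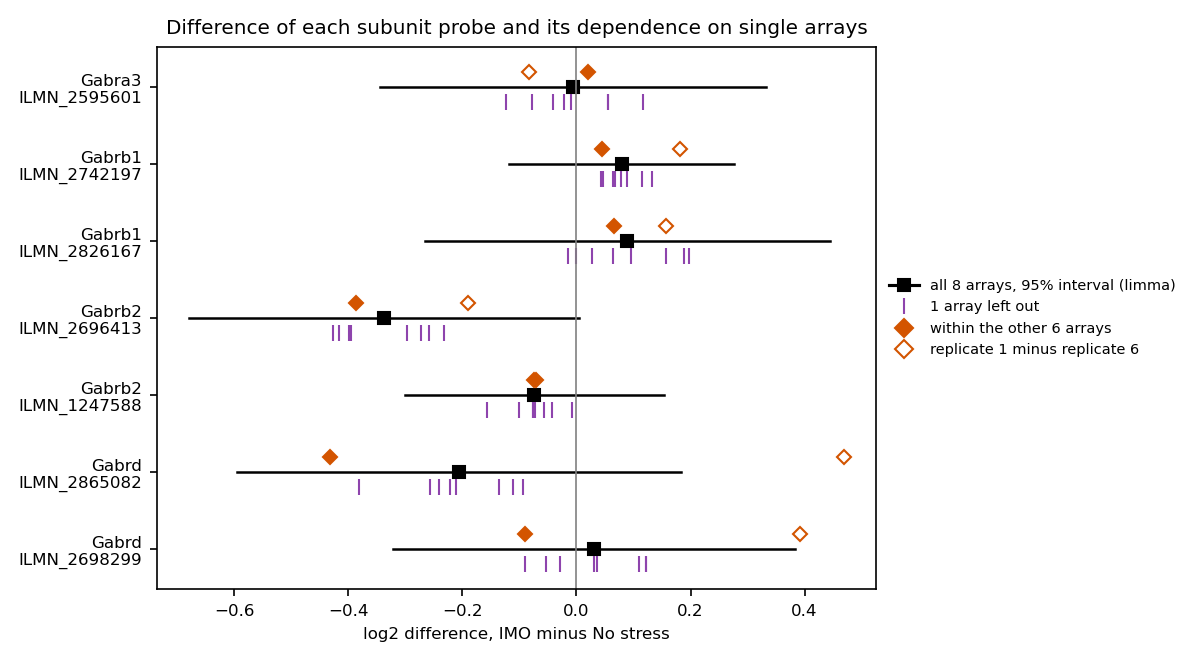
Log2 difference, IMO minus No stress (horizontal axis), of each tested subunit probe. Squares and lines are the limma estimate from all 8 arrays with its 95% interval, ticks are the estimates with 1 array left out, filled diamonds the difference within the 6 arrays other than IMO replicate 1 and No stress replicate 6, and open diamonds the difference between those 2. Every interval includes 0, and for Gabrd the open diamonds (0.47 and 0.39) lie opposite the filled ones (-0.43 and -0.09).

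Counted together, the subunits gave no call. Of the 7 tested probes 0 had an adjusted p under 0.05, against 0 of 20531 (0%) over the array, where the smallest adjusted p was 0.152. At an unadjusted p under 0.05 the count was also 0 of 7, against 2183 of 20531 probes (10.6%, of which 5.19% higher and 5.44% lower in IMO arrays). The groups were apart at 0 of 7 probes, against 6.92% of all tested probes (3.36% higher and 3.56% lower). Higher mean signal in IMO arrays was seen at 3 probes and lower at 4, with a median log2 difference of -0.01, against a median of 0.000916 over all tested probes with 50.2% of them higher and 49.8% lower. The median absolute difference was 0.08 for the subunit probes and 0.10 for all. In bulk tissue, fewer cells that express a subunit and less of its RNA per cell cannot be told apart.

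The genes that make and load GABA stood high on the same pair of arrays. Gad2, 1 of the enzymes that make GABA, had 12.38 in IMO replicate 1 and 12.03 in No stress replicate 6, against 10.75 to 11.40 on the other 6 arrays. Gad1, the other such enzyme, had 12.82 and 12.69 against 11.9955 to 12.35, and the vesicular GABA transporter Slc32a1 had 12.45 and 12.31 against 11.26 to 11.60. Both arrays lay above the other 6 at these 3 genes and at 6 more of the 48 other GABA genes tested (18.8%, against 7.57% of all tested probes), and below them at 0 (against 9.57%). At the 7 subunit probes both arrays lay above the other 6 at 0 and below them at 0, which among 7 probes is near the background share. The mean of the pair still differed from that of the other 6, by 0.31 for Gabrb1 ILMN_2826167, by 0.26 for Gabrb2 ILMN_2696413 and by -0.25 and -0.24 for the Gabrd probes. Gabrg1, a gamma subunit gene in the same chromosome 5 cluster as Gabra2, Gabra4 and Gabrb1, was among the 9, with 7.64 and 7.43 against 6.53 to 6.88. These are single arrays described by their regional markers, and no test was made between them and the rest. The 11 interneuron markers listed, Gad1 and Gad2 included, had a centred mean of -0.01 and 0.07 on this pair, within or close to the -0.05 to 0.05 of the other arrays. That mean joins members that went opposite ways. Both arrays lay above the other 6 at Gad1, Gad2 and, by little, Sst, and below them at Vip, Cck and Reln. Vip had 9.94 and 10.08 against 10.39 to 10.92, and Cck 11.93 and 11.72 against 12.21 to 12.62.

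**Figure D4:**
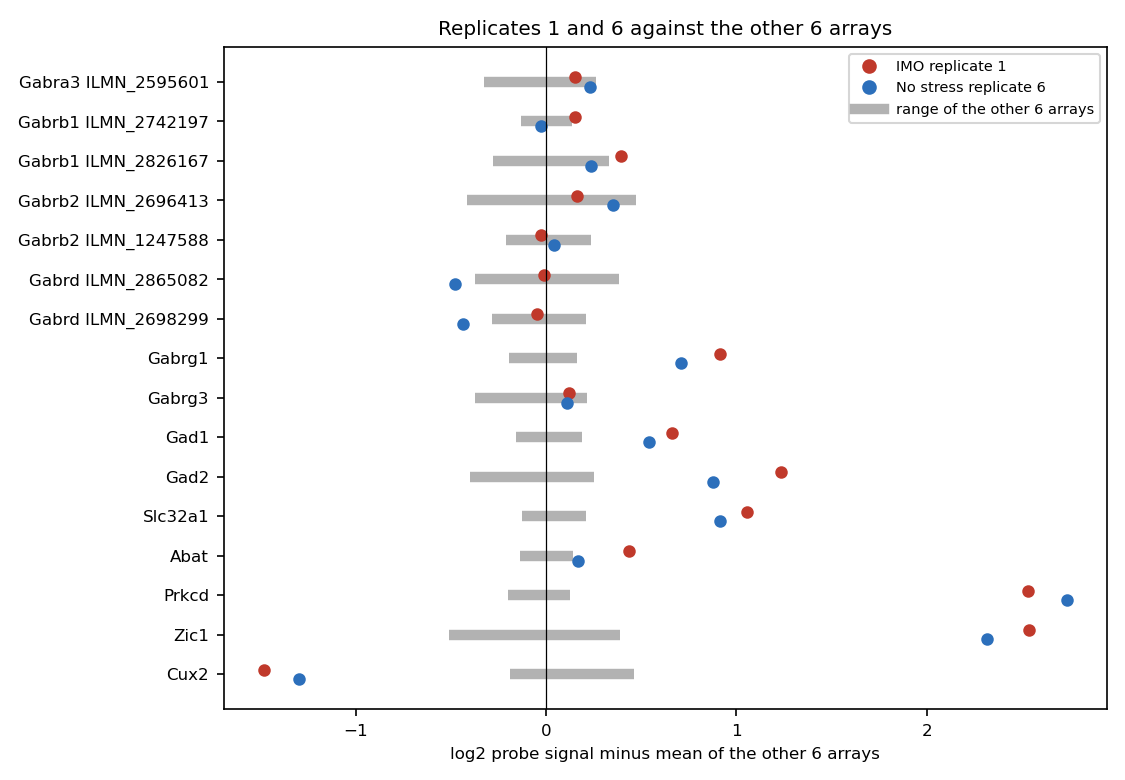
Log2 probe signal minus the mean of the other 6 arrays (horizontal axis) for IMO replicate 1 (red) and No stress replicate 6 (blue), with grey bars for the range of those 6 arrays. At Prkcd and Zic1 both arrays lie far to the right and at Cux2 to the left. Gad1, Gad2, Slc32a1 and Gabrg1 lie to the right, while no tested subunit probe has both arrays outside the bar on 1 side.

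The other genes of GABA signalling were read from 6 lists. They hold 71 genes, 59 with a probe under that name and 48 with a tested one. At an adjusted p under 0.05, 0 of 48 were called, and at an unadjusted p under 0.05 there were 6 (12.5%, against 10.6% of all tested probes), 2 higher and 4 lower in IMO arrays. The median log2 difference was 0.05, with 30 genes of higher and 18 of lower mean signal. The groups did not overlap at 4 genes (8.33%, against 6.92%), which were Glul, Nlgn2, Gabarapl2 and Kif5a, all lower in IMO arrays. A share this near the background is no result about these genes, and the values follow as a description.

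Of 12 other GABA-A subunit genes, 8 have a probe of that name and 2 a tested one. Gabrg3, a gamma subunit, had a log2 difference of 0.15 (limma adjusted p 0.737) and Gabrg1 one of 0.08 (adjusted p 0.945). Gabrg3 was at 0.035 without No stress replicate 5 and at 0.22 without No stress replicate 7. Gabrg1 was at -0.15 without IMO replicate 1, at 0.26 without No stress replicate 6 and at 0.034 without both. Among GABA-B receptor genes, which encode the metabotropic GABA receptor and its auxiliary proteins, 4 were tested and 0 had an unadjusted p under 0.05. There the auxiliary subunit Kctd12b had a difference of 0.11 (adjusted p 0.812) and the receptor subunit Gabbr2 one of 0.10 (adjusted p 0.833). Kctd12b was at -0.011 without No stress replicate 7 and at 0.18 without the pair of arrays that stood apart. Gabbr2 was at 0.012 without No stress replicate 5 and at 0.18 without No stress replicate 8.

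Among 9 tested genes of GABA synthesis, loading, uptake and breakdown, 1 had an unadjusted p under 0.05. This was Glul, the astrocyte enzyme that makes the glutamine from which neurons rebuild GABA, with log2 means of 8.80 ± 0.16 in IMO and 9.10 ± 0.09 in No stress arrays (SD, n = 4 each). Its difference was -0.29 (limma adjusted p 0.353) and the groups did not overlap. The 6 astrocyte markers listed had centred means of -0.36 to 0.48 in IMO and -0.50 to 0.20 in No stress arrays, and their part in the Glul value was not tested. The betaine and GABA transporter Slc6a12 had a difference of 0.22 (adjusted p 0.562), and of 0.13 without No stress replicate 5.

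Of 24 tested genes for the scaffold, anchoring and trafficking of the receptor, 12 had higher and 12 lower mean signal, and 3 had an unadjusted p under 0.05. Clptm1, a protein that holds GABA-A receptors back from the cell surface, had log2 means of 10.13 ± 0.12 in IMO and 9.84 ± 0.10 in No stress arrays (SD, n = 4 each), a difference of 0.29 (limma adjusted p 0.351). Without the pair of arrays that stood apart it was 0.24, with an unadjusted p of 0.0531. Gabarapl2, of the family of the GABA-A receptor-associated protein, had 8.91 ± 0.07 and 9.16 ± 0.05 (IMO first), a difference of -0.25 (adjusted p 0.346). Its other tested probe was at -0.13. Kif5a, a motor protein that carries GABA-A receptors along microtubules, had a difference of -0.31 (adjusted p 0.346) at its brightest probe, while its other tested probes were at -0.07 and 0.01. The counts rest on the brightest probe of each gene, at 0.12 for Gphn and 0.06 for Zdhhc3. A dimmer Gphn probe was at 0.27 (limma unadjusted p 0.016, adjusted p 0.377), its others at 0.05, -0.05 and 0.17. A dimmer Zdhhc3 probe was at 0.28 (unadjusted p 0.0259, adjusted p 0.417), its other at 0.03.

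Among 7 tested genes of chloride transport, which sets the driving force for GABA currents, 2 had an unadjusted p under 0.05 with opposite signs. The neuronal chloride exporter Slc12a5 had log2 means of 8.27 ± 0.06 in IMO and 8.49 ± 0.18 in No stress arrays (SD, n = 4 each), a difference of -0.22 (limma adjusted p 0.469), and -0.15 without No stress replicate 7. Stk39, a kinase that regulates the chloride cotransporters, had 10.51 ± 0.16 and 10.24 ± 0.12 (IMO first), a difference of 0.27 (adjusted p 0.416). With 1 array left out, the unadjusted p was under 0.05 in 1 of 8 fits for Slc12a5 and in 3 of 8 for Stk39. Wnk1 was at 0.0023 at its brightest probe. A dimmer Wnk1 probe was at -0.28 (limma unadjusted p 0.0363, adjusted p 0.44), its others at -0.23 and 0.01. In the list for neurosteroids and benzodiazepine-site ligands, 2 of 6 genes were tested. The diazepam binding inhibitor Dbi had a difference of 0.06 (adjusted p 0.94) and the translocator protein Tspo one of -0.15 (adjusted p 0.812). Tspo was at -0.29 without IMO replicate 1, at -0.060 without IMO replicate 3 and at -0.30 without the pair. Dbi was at -0.065 without No stress replicate 7 and at 0.18 without No stress replicate 6.

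**Figure D5:**
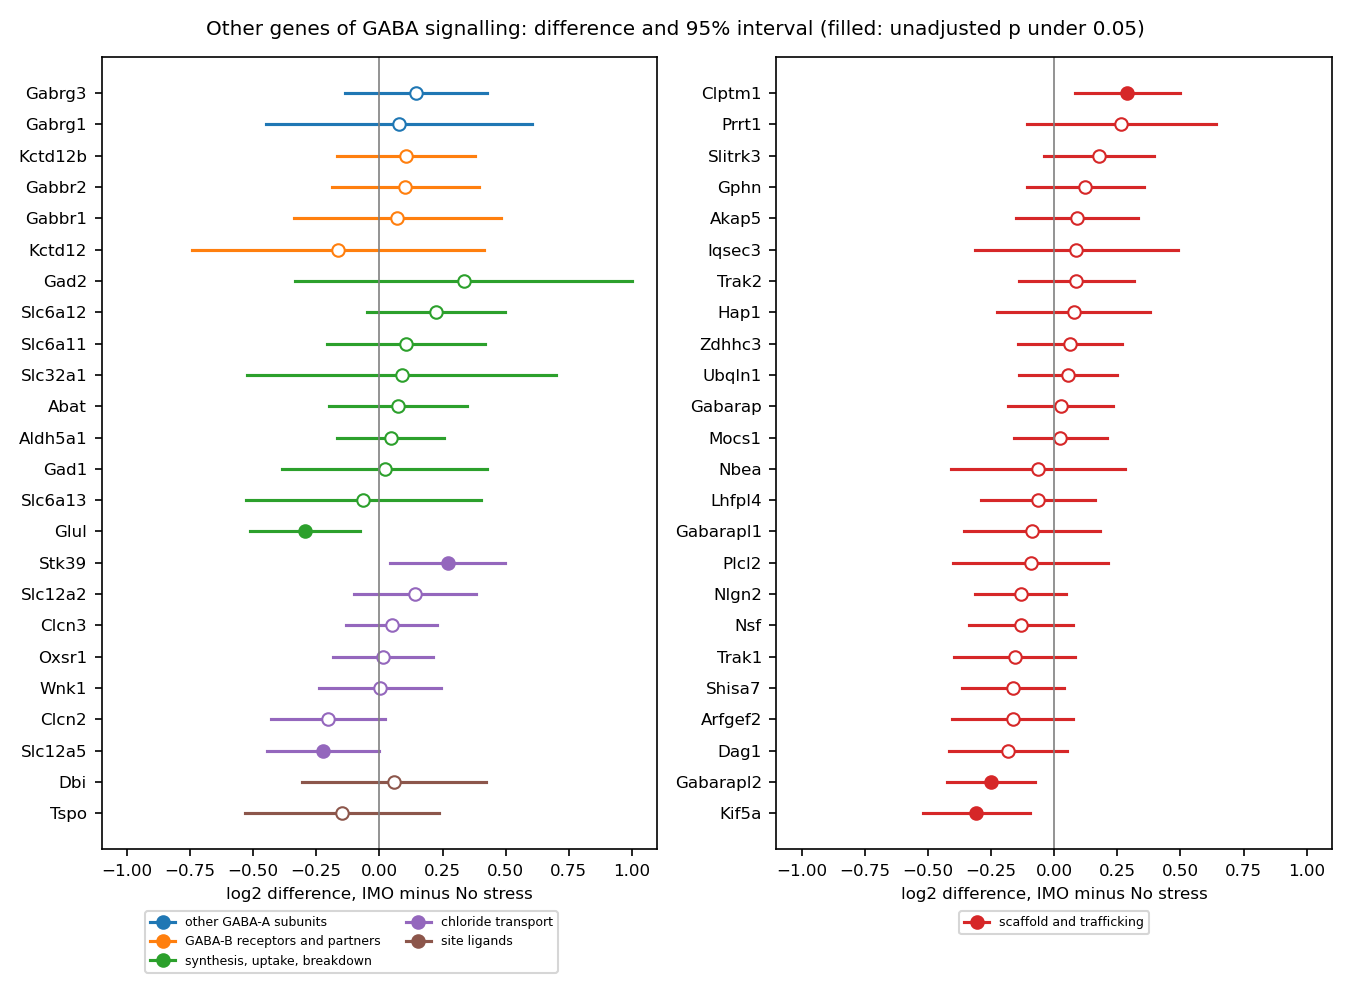
Log2 difference, IMO minus No stress (horizontal axis), with its 95% limma interval for the 48 tested genes of 6 GABA lists, each at its brightest tested probe and coloured by list. Filled points are the 6 genes with an unadjusted p under 0.05, of which Clptm1 and Stk39 lie at 0.29 and 0.27 and Glul, Gabarapl2, Kif5a and Slc12a5 between -0.22 and -0.31. None passed after adjustment over all probes tested.

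Lastly, each tested subunit was set against 11017 other named genes by the root mean square difference of centred log2 signals over the 8 arrays, where a smaller value means a more similar course over arrays. For Gabrb2 (ILMN_2696413) the nearest were Rcan2, a regulator of calcineurin, at 0.0807 and Uba3, a subunit of the NEDD8-activating enzyme, at 0.0935, where a flat course would score 0.28. Their own differences between groups were -0.30 and -0.35. For Gabrd (ILMN_2865082) the nearest were Tmem44 at 0.121 and the presynaptic priming factor Unc13c at 0.129, against 0.282 for a flat course, with differences of -0.20 and -0.21. Gabra3 lay nearest to the chemokine gene Ccl17 (0.0744) and to Atrn (0.079), against 0.221 for a flat course. Gabrb1 (ILMN_2742197) lay nearest to the ubiquitin-conjugating enzyme gene Ube2a (0.0445) and to Sqle (0.045), an enzyme of cholesterol synthesis, against 0.0967. No subunit gene was among the 2 nearest of another. Over only 8 arrays, the 2 closest of 11017 genes are close through the choice itself, and so are their differences between groups. By the same measure the 2 tested probes of 1 gene lay farther apart, at 0.169 for Gabrb1, 0.269 for Gabrb2 and 0.165 for Gabrd. No chance level was set for these values.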

How the data were processed

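RNA isolated on RNeasy columns was turned into biotinylated cRNA with an Ambion MessageAmp kit, per the labels' protocols. The authors deposited 2 tables of linear probe signal intensity, and the second pairs every signal with the scanner software's deposited detection p-value. The second was deposited under a name that calls it non-normalized. Beyond that, the sources used here do not state the steps between scan and tables. Both tables hold nearly equal sorted columns, the form quantile normalization leaves, which for the second is at odds with its name. Detection p rose at 0% of steps of rising signal in the value table and at up to 36.8% in the second, so the value table was analysed with those detection p-values, and the second table is an alternative. Between 20012 and 21038 probes were detected per array.

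Signals were taken to log2 with no pseudocount. The 20531 probes detected (p under 0.05) on 4 or more arrays were fitted in R 4.3.3 with limma 3.58.1 (lmFit, eBayes), and p was adjusted over all of them by the Benjamini-Hochberg method. The code was tested on simulated data. Precision is limited by the number of arrays (median standard error 0.11). Groups came from the sample titles. Symbols came from the platform annotation (34885 probes with 1 symbol, 18 with several, 10378 unnamed here, 0 symbols changed through Entrez IDs). Genes of other lists were read at their brightest tested probe. Alternatives were other probe filters, normalizations, variance models and array weights, a pseudocount of 50, the second table, a gene's mean over probes, and leaving out arrays or blocking on 2 of them.

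Genes named were all member probes, in each other list those with an unadjusted p under 0.05 and the 2 of smallest p, the 2 nearest genes of each member, and Prkcd, Zic1 and Cux2. Slc17a7, Neurod2, Emx1, Neurod6, Calb1, Foxp2, Cux1, Lef1, Gad1, Gad2, Slc32a1 and Nlgn2 were named after their values were seen. So were Zic2, Zic4, Trpc4, Tcf7l2, Rora, Calb2, Ntng1, Ppp1r1b, Penk, Tac1, Drd1, Drd2, Rgs9, Gng7 and Pde10a. The same holds for Sst, Vip, Cck, Reln, Gphn, Zdhhc3 and Wnk1. Members, lists and tests were chosen with earlier results of these data known. No genome was used.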

Additional observations from a re-analysis of the deposited data

Results flagged for a closer look

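Within each group of 4 arrays, the tested subunit probes and the other GABA genes whose differences are given were searched for 1 array far from the rest (40 groups, of which chance alone would mark about 1 in 20). None of the 7 subunit probes had such an array. The 1 gene found was Kif5a, where IMO replicate 3 had a log2 signal of 12.49, against 12.72 to 12.76 on the other IMO arrays, a gap of 0.839 of the group's range and above Dixon's limit for 4 values. Without that array the Kif5a difference was -0.25, against -0.31 with it, and the limma unadjusted p was under 0.05 in 8 of 8 fits with 1 array left out, as it was for Glul, Clptm1 and Gabarapl2. It was so in 1 of 8 for Slc12a5 and in 3 of 8 for Stk39.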

How the results depend on the processing

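No paired analysis was possible because replicates 1 to 8 share no number between the groups. The count of called subunit probes was 0 under every alternative, as was that of other GABA genes. Over all probes the count of calls was 0, and 1 without IMO replicate 1 and No stress replicate 6. At an unadjusted p under 0.05 the count over all probes was 2183 as reported and 1467 to 2407 with 1 array left out. It was 3770 with no probe filter, 3110 with array weights and 567 in the second deposited table. With the pair of arrays as a block it was 2732, and without the pair 2354. Among subunit probes that count, 0 as reported, was 1 with no probe filter, with array weights, in the second table and with the pair of arrays as a block, 2 without the pair, and 0 to 1 with 1 array left out. Among other GABA genes it was 6 as reported and 4 to 9 with 1 array left out. These subunit probes were Gabrb2 ILMN_2696413 (adjusted p 0.283 to 0.573 in the settings besides single arrays), Gabrd ILMN_2865082 and, in the second table, Gabrb2 ILMN_1247588.

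Under the 12 alternatives besides single arrays the subunit differences kept their sign in 77 values and turned in 7. Gabra3 turned to 0.054 with array weights and 0.020 without the pair. In the second table the sign turned for Gabrb1 (-0.15 and -0.24), Gabrb2 ILMN_2696413 (0.069) and Gabrd ILMN_2698299 (-0.064), and without the pair the last was at -0.090. Among other genes it turned in the second table for Glul (0.032), Clptm1 (-0.12), Kif5a (0.067), Stk39 (-0.16), Kctd12b (-0.093), Tspo (0.47), Dbi (-0.16) and Gabrg1 (-0.47), and with array weights for Dbi (-0.00243) and Gabrg1 (-0.078). With 1 array left out the sign also turned for Gabra3 (-0.12 to 0.12), Gabrb1 ILMN_2826167 (-0.014 to 0.20), Gabrd ILMN_2698299 (-0.090 to 0.12), Kctd12b (-0.011 to 0.17), Dbi (-0.065 to 0.18) and Gabrg1 (-0.15 to 0.26). The cause was not tested. Signal over background limits the Gabrb2 probes most, and Gabra4 and Gabra5 could not be tested at all.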

Other observations

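The second deposited table gives other subunit signals under the same sample names, and no source used here says which of the tables carries the right names. In it the array named IMO replicate 3 had the lowest signal of all 8 arrays at 7 of the 7 tested subunit probes, among them Gabra3 at 7.16, against 8.03 to 8.61 on the other arrays. Over all tested probes that array was lowest at 41.7%. In the value table the array of that name was lowest at 0 of the 7 subunit probes and at 10.6% of all tested probes.

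In the same table Gabrb2 ILMN_1247588 read 6.34, 6.62, 6.05 and 6.44 in IMO arrays, against 6.70, 6.77, 6.84 and 6.74 in No stress arrays. The log2 difference was -0.40 (limma unadjusted p 0.00959, adjusted p 0.981), where the value table gave -0.07 for this probe. The high Prkcd signals of the second table fell on other arrays too, with 9.42 in IMO replicate 3, and 9.81 and 8.58 in No stress replicates 5 and 6, against 7.29 to 7.72 elsewhere.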
